A study of Homo sapiens with 8 samples.

Results

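The miR-181 family was examined in small RNA sequencing of DLD1 and HT29, established human colorectal adenocarcinoma cell lines. The family was defined by 7 mature miRNAs, hsa-miR-181a-5p, hsa-miR-181a-3p, hsa-miR-181a-2-3p, hsa-miR-181b-5p, hsa-miR-181c-5p, hsa-miR-181c-3p and hsa-miR-181d-5p (written below without the species prefix), out of 1780 miRNA rows in the table of raw read counts, and all 7 had a row. Each line was grown for 6 days as a flat monolayer in flasks (2D) or as multicellular spheroids (MCS), non-adherent balls of cells that form in round-bottom wells over agarose. DLD1 was seeded at 35000 cells per flask in 2D and 7000 cells per well in MCS and kept in RPMI. HT29 was seeded at 100000 cells per flask and 3500 cells per well and kept in DMEM. Both media carried fetal bovine serum, glutamine, sodium pyruvate, penicillin and streptomycin. There were 2 libraries, described in the labels as biological replicates, in each of the 4 groups. Library kits also differed, version 3 for DLD1 and version 2 for HT29, so that kit, medium and cell line cannot be told apart. The 2 replicates of a group come from the same cell line. The p-values of the count tests measure spread between such replicates, and this spread was estimated partly over all tested miRNAs together.

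MicroRNAs are short RNAs cut from a hairpin precursor, and each hairpin can give a mature strand from its 5′ side (5p) and another from its 3′ side (3p). A miRNA finds its target mRNAs mainly through its seed, bases 2 to 8 counted from the 5′ end. The miR-181 family is best known for its part in lymphocyte development, where miR-181a tunes T cell receptor signalling, and is also expressed in many epithelial tumours. Its genes lie in pairs of an a- and a b-type hairpin, or of the c and d hairpins, and each pair is thought to be transcribed together.

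The mature sequences are shown because they decide what the counts can separate. They were taken from the RefSeq table for GRCh38.p14, which matched all 7 members, and are written 5′ to 3′ with the seed in capitals:
miR-181a-5p: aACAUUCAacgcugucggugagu
miR-181b-5p: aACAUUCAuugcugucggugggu
miR-181c-5p: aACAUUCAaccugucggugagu
miR-181d-5p: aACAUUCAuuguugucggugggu
miR-181a-3p: aCCAUCGAccguugauuguacc
miR-181a-2-3p: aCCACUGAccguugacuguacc
miR-181c-3p: aACCAUCGaccguugaguggac

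The 4 members from the 5′ side shared the seed ACAUUCA, while each of the 3 members from the 3′ side had a seed of its own. Within the 5p group, miR-181c-5p was 1 edit (a base changed, added or lost) away from miR-181a-5p, and miR-181d-5p was 1 edit away from miR-181b-5p. miR-181a-5p and miR-181b-5p were 3 edits apart. miR-181a-3p and miR-181a-2-3p were also 3 edits apart, and they carry the information on which copy of the miR-181a gene the RNA came from.

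That copy information can be read from the hairpins of the miR-181a genes, in which the mature arms are in capitals. The 5p arm is the same in both and the 3p arm is not:
MIR181A1: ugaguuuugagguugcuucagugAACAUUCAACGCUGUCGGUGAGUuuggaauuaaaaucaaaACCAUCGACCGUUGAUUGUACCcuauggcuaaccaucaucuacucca
MIR181A2: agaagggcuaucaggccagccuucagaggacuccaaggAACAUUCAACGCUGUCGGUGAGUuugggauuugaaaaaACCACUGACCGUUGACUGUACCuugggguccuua

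MIR181A1, the source of miR-181a-3p, lies at chr1:198828173-198828282 on the minus strand (GRCh37, GENCODE release 44 lifted to this build), in an intron of the long non-coding RNA MIR181A1HG. MIR181B1 is 61 bases from it, at chr1:198828002-198828111. MIR181A2, the source of miR-181a-2-3p, lies at chr9:127454721-127454830 (plus strand), within an intron of the long non-coding RNA MIR181A2HG and opposite an intron of NR6A1, a nuclear receptor gene. MIR181B2 follows after 1158 bases, at chr9:127455989-127456077. MIR181C (chr19:13985513-13985622) and MIR181D (chr19:13985689-13985825) are 66 bases apart within an intron of NANOS3 (plus strand), a germ cell RNA-binding protein gene. Reads of miR-181a-5p and miR-181b-5p can therefore come from chromosome 1 or chromosome 9, whereas the c and d members come from chromosome 19 alone.

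The libraries held 10495634 to 26211524 miRNA counts. Epithelial miRNAs were present in every library, where all 8 listed markers, among them the miR-200 family and miR-192-5p, exceeded 10 CPM (counts scaled to the same library total), and the mesenchymal list summed to 0.762 to 11.3 CPM. A muscle list, chiefly miR-1-3p, summed to 1.33 to 91.2 CPM. A neuronal list, chiefly miR-128-3p, summed to 135 to 2270 CPM and was higher in DLD1. The sum of a list does not by itself mark a cell type. The HT29 replicates stood apart from each other. miR-10a-5p took 47.3% and 10.6% of the counts of the 2 HT29 2D libraries and 38.5% and 6.57% of the 2 HT29 MCS libraries. Before library correction, replicates differed by a median of 1.54 (HT29 2D) and 1.07 (HT29 MCS) in log2 CPM. Those of DLD1 differed by 0.21 and 0.25. Levels below are normalized CPM, that is, CPM of the library corrected by an upper quartile factor computed over all 8 libraries. In HT29 this factor was 0.397 against 1.25 (2D) and 0.570 against 1.23 (MCS) for replicates 1 and 2, an offset those medians include. For the members, miR-181c strands aside, normalized CPM of replicate 2 over replicate 1 ran from 1.09 to 2.19 in HT29 2D. The range was 0.511 to 1.60 in HT29 MCS, 0.864 to 1.13 in DLD1 2D and 1.00 to 1.15 in DLD1 MCS. Medians over all miRNAs after correction were not computed. Because small RNA libraries capture different sequences unequally, values of a sequence are compared between libraries, and values of different members are set beside each other as counts only.

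miR-181a-5p was the most abundant member in all 8 libraries and ranked between 31 and 61 among the miRNAs of each library. Its normalized CPM were 1274 and 1101 in DLD1 2D, 3992 and 3996 in DLD1 MCS, 1383 and 3025 in HT29 2D, and 2951 and 4721 in HT29 MCS. Both DLD1 MCS libraries lay above both DLD1 2D libraries, whereas the HT29 groups overlapped, with replicate 2 of 2D above replicate 1 of MCS. The group means were ordered, from low to high, as DLD1 2D, HT29 2D, HT29 MCS and DLD1 MCS, and only DLD1 2D was separated from its neighbour in that order.

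miR-181b-5p, which shares the seed of miR-181a-5p, was measured at 914 and 938 normalized CPM in DLD1 2D, 1609.6 and 1664 in DLD1 MCS, 693 and 917 in HT29 2D, and 1040.5 and 1277 in HT29 MCS. In each line both MCS libraries were above both 2D libraries, while the 2D libraries of the lines overlapped. The 3p arm of the chromosome 1 copy, miR-181a-3p, was at 103 and 116 in DLD1 2D, 178 and 191.95 in DLD1 MCS, 493 and 606 in HT29 2D, and 481 and 339 in HT29 MCS. Its 4 groups did not overlap, and its HT29 libraries were all above its DLD1 libraries. How common such a separation is among all miRNAs was not counted.

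The 3p arm of the chromosome 9 copy, miR-181a-2-3p, was at 17.7 and 17.4 normalized CPM in DLD1 2D, 47.5 and 49.3 in DLD1 MCS, 16.3 and 17.8 in HT29 2D, and 37.7 and 19.3 in HT29 MCS. The 2D libraries of both lines were close to each other, and the HT29 MCS replicates were far apart. miR-181d-5p, the chromosome 19 member with the highest level, was at 9.21 and 9.54 in DLD1 2D, 11.0 and 12.7 in DLD1 MCS, 15.4 and 21.7 in HT29 2D, and 46.5 and 39.5 in HT29 MCS. Its groups did not overlap and were ordered as listed, a pattern whose share among all miRNAs was not counted.

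The remaining chromosome 19 members were rare. miR-181c-5p had 45 and 109 counts in DLD1 2D, 85 and 90 in DLD1 MCS, 7 and 106 in HT29 2D, and 149 and 211 in HT29 MCS. In normalized CPM these were 1.94 and 2.91, 3.66 and 4.27, 1.68 and 3.24, and 24.3 and 9.96, so that HT29 MCS was above the other groups. Its partner strand miR-181c-3p was at 2.58 and 1.71 normalized CPM in DLD1 2D, 1.21 and 2.80 in DLD1 MCS, 2.88 and 9.13 in HT29 2D, and 13.4 and 11.8 in HT29 MCS, again with the HT29 MCS libraries highest. It had 12 counts in replicate 1 of HT29 2D. The share of all miRNAs with HT29 MCS above the other groups was not counted.

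**Figure D1:**
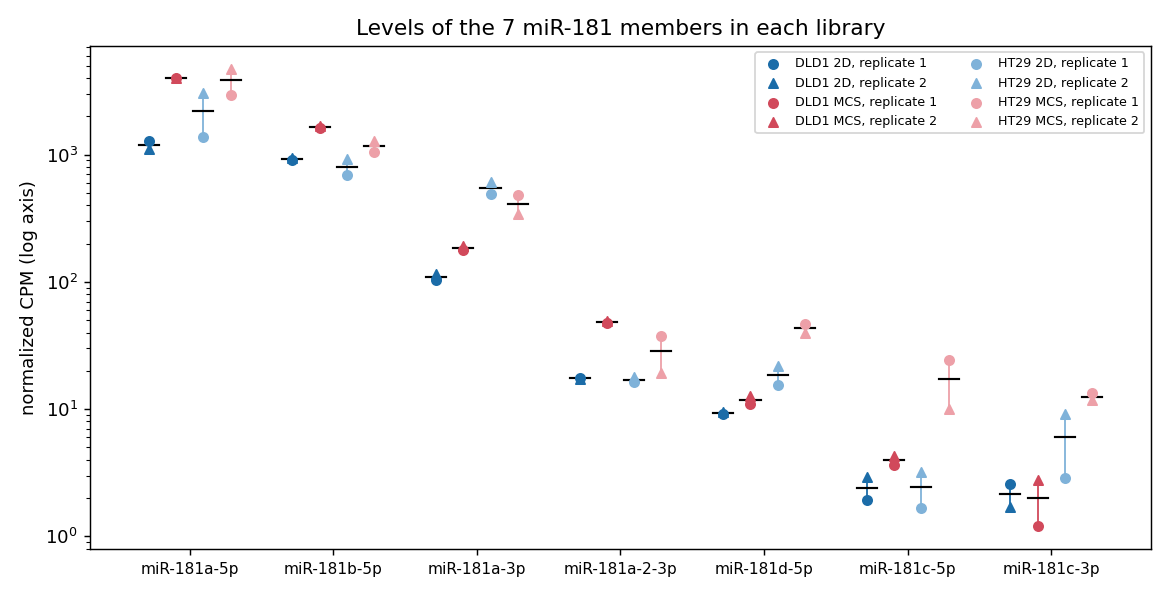
Normalized CPM (log axis) of the 7 miR-181 members in each of the 8 libraries, with circles for replicate 1, triangles for replicate 2, a vertical line joining the replicates and a black bar at their mean. miR-181a-5p lies at 1101 to 4721 and miR-181c-5p at 1.68 to 24.3. The DLD1 replicates nearly coincide for the abundant members, while the HT29 replicates are farther apart.

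The first comparison asked which miRNAs differ between MCS and 2D in DLD1. In these cells 4 members rose in MCS. They were both 5p strands of the a and b hairpins, miR-181a-5p and miR-181b-5p, and both 3p strands of miR-181a, miR-181a-3p from chromosome 1 and miR-181a-2-3p from chromosome 9, and no member fell. The counts come from whole cultures, so more cells expressing a miRNA and more of it per cell cannot be told apart. Of the 7 members 5 had a mean of at least 10 CPM and were tested with the 346 miRNAs of the line, by the quasi-likelihood test of edgeR (Benjamini-Hochberg adjusted), where a call needed a change of at least 1.5-fold and an adjusted p under 0.05. Of all tested miRNAs 41.3% were called, 29.8% higher in MCS and 11.6% lower, against 4 of the 5 tested members higher.

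miR-181a-5p rose by a log2 fold change of 1.77 (SE 0.25, adjusted p = 3.74e-11), and miR-181a-2-3p by 1.49 (SE 0.31, adjusted p = 1.44e-05). The changes of miR-181b-5p (0.84, SE 0.23, adjusted p = 0.00116) and miR-181a-3p (0.78, SE 0.25, adjusted p = 0.00481) were smaller. miR-181d-5p had a log2 fold change of 0.36 (SE 0.35, adjusted p = 0.419) and was not called. The median over the tested members was 0.84, beside 0.23 over all tested miRNAs. All 5 had both MCS libraries above both 2D libraries, as did 46% of all tested miRNAs, and none had them below, as 27.2% did.

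The scaling of the libraries moved every fold change in DLD1 together. Relative to the upper quartile over all miRNAs, the median of the tested miRNAs fell by 0.12 on the log2 scale with RLE factors, by 0.21 with TMM factors, by 0.37 with library totals and by 0.46 with an upper quartile over tested miRNAs only. The share of calls that were increases went from 72.0% to 64.0%, 55.1%, 42.0% and 34.5% in that order. Taken relative to the median, miR-181a-5p was 1.54 higher, miR-181a-2-3p 1.26, miR-181b-5p 0.62, miR-181a-3p 0.56 and miR-181d-5p 0.13, and none of these 5 differences changed by more than a few hundredths between the 5 scalings. miR-181a-5p and miR-181a-2-3p were called under all 5. miR-181b-5p lost its call with library totals (log2 fold change 0.47) and with the upper quartile over tested miRNAs (0.39), and miR-181a-3p with these (0.41 and 0.33) and with TMM (0.58). With all 8 libraries in a single fit, which takes in the wider spread of HT29, none of the 5 was called, and the adjusted p was 0.0516 for miR-181a-5p and 0.0558 for miR-181a-2-3p. Without replicate 2 of DLD1 2D, 2 members were called, miR-181a-5p and miR-181a-2-3p.

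**Figure D2:**
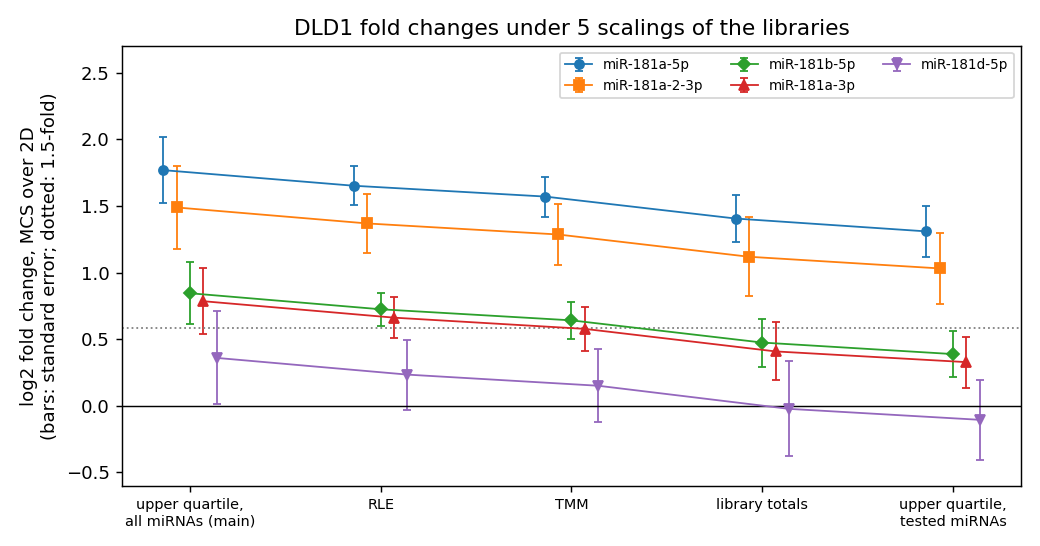
Log2 fold change of MCS over 2D in DLD1 for the 5 tested members under 5 scalings of the libraries, with bars for the standard error and a dotted line at 1.5-fold. All lines slope downward in parallel. miR-181a-5p stays between 1.31 and 1.77 and miR-181d-5p passes from 0.36 to -0.11.

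In HT29 the same comparison gave no call for any member. The log2 fold change was 1.25 for miR-181d-5p (SE 0.45, adjusted p = 0.975), 0.85 for miR-181a-5p (SE 0.58, adjusted p = 0.977), 0.77 for miR-181a-2-3p (SE 0.50, adjusted p = 0.977), 0.57 for miR-181b-5p (SE 0.42, adjusted p = 0.977) and -0.38 for miR-181a-3p (SE 0.43, adjusted p = 0.977), all by edgeR's quasi-likelihood test over 301 miRNAs. None of the 301 was called (0%), 12 had an unadjusted p under 0.05, and DESeq2 called 11. Among the members the unadjusted p was under 0.05 for miR-181d-5p (0.0385). The median over the 5 tested members was 0.77, beside 0.03 over all tested miRNAs. miR-181a-3p was the only tested member with both MCS libraries below both 2D libraries, a pattern that 12.3% of the tested miRNAs showed, and miR-181a-2-3p, miR-181b-5p and miR-181d-5p had both MCS libraries above, as did 17.3%.

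**Figure D3:**
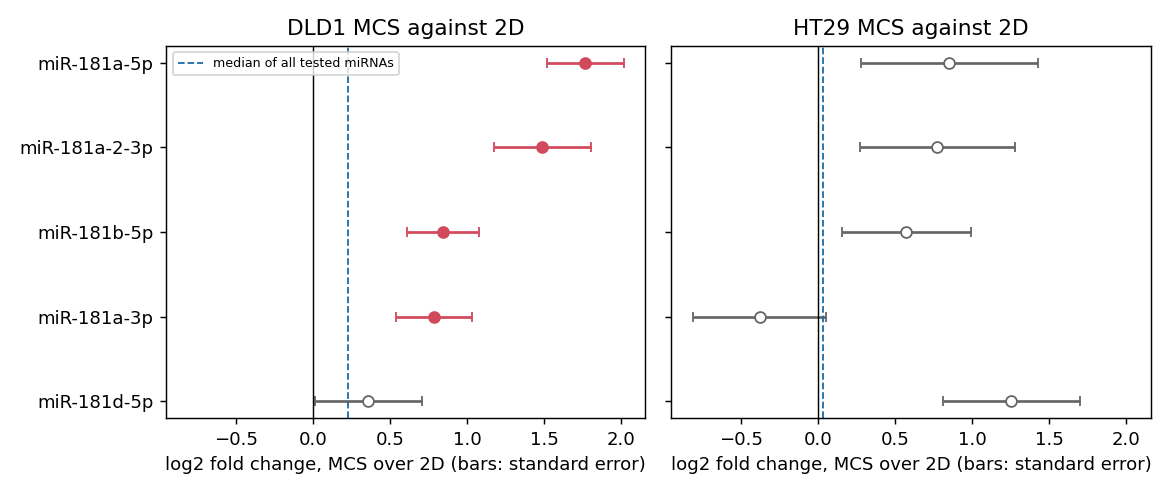
Log2 fold change of MCS over 2D with its standard error for the 5 tested members in DLD1 (left) and HT29 (right), with filled red points for calls and open grey points for the rest. The dashed line is the median of all tested miRNAs, 0.23 in DLD1 and 0.03 in HT29. The error bars are wider in HT29, and miR-181a-3p lies at 0.78 in DLD1 and at -0.38 in HT29.

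The least abundant members entered the test only when the minimum of 10 CPM was dropped. miR-181c-5p was then called higher in HT29 MCS, with a log2 fold change of 2.77 (SE 0.71, edgeR quasi-likelihood adjusted p = 0.0184 over 1636 miRNAs). Of these miRNAs 0.917% (15) were called. In DLD1 the log2 fold change of miR-181c-5p was 0.74 (SE 0.52, adjusted p = 0.543 over 1492 miRNAs). Those of miR-181c-3p were 1.06 (SE 0.66, adjusted p = 0.973) in HT29 and -0.06 (SE 0.62, adjusted p = 0.979) in DLD1. The HT29 value of miR-181c-5p rests on a 2D library with 7 counts and another with 106.

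Because miR-181c-5p is 1 edit from a far more abundant sequence, its counts were set beside those of miR-181a-5p. miR-181c-5p amounted to 0.0917% to 0.264% of miR-181a-5p in 7 libraries and to 0.824% in replicate 1 of HT29 MCS. For the pair of miR-181d-5p and miR-181b-5p the percentage was 1.01 and 1.02 in DLD1 2D, 0.682 and 0.761 in DLD1 MCS, 2.22 and 2.36 in HT29 2D, and 4.47 and 3.10 in HT29 MCS. The percentage for miR-181d-5p was thus lowest in DLD1 MCS and highest in HT29 MCS. The counting of reads that fit more than 1 mature sequence is not given in the sources used here, and the part of misassigned reads in these rows was not tested.

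Whether the responses of the lines differ was tested as the interaction of line and culture over all 8 libraries, with 250 miRNAs that passed the minimum in both lines. None was called (0%) by edgeR's quasi-likelihood test, 23 had an unadjusted p under 0.05 and DESeq2 called 20. For miR-181a-3p the response in HT29 was -1.18 relative to DLD1 on the log2 scale (SE 0.43, unadjusted p = 0.0289, edgeR adjusted p = 0.376). For miR-181a-5p the difference was -0.95 (SE 0.60, adjusted p = 0.708), for miR-181a-2-3p -0.73 (SE 0.52, adjusted p = 0.749), for miR-181b-5p -0.30 (SE 0.37, adjusted p = 0.855) and for miR-181d-5p 0.87 (SE 0.42, adjusted p = 0.667). The calls in DLD1 and their absence in HT29 therefore do not show that the lines respond differently.

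Between the lines, miR-181a-3p and miR-181d-5p were higher in HT29 than in DLD1 in both cultures. In 2D miR-181a-3p was higher by a log2 fold change of 2.33 (SE 0.32, adjusted p = 0.00202) and miR-181d-5p by 0.99 (SE 0.30, adjusted p = 0.0361). In MCS the order of size was exchanged, with 1.86 for miR-181d-5p (SE 0.31, adjusted p = 0.00435) and 1.15 for miR-181a-3p (SE 0.31, adjusted p = 0.0217). These are edgeR quasi-likelihood values over 250 miRNAs. Of these 42.4% were called in 2D (26% higher in HT29 and 16.4% lower) and 42.8% in MCS (24.4% higher and 18.4% lower), against 2 of the 5 tested members higher and none lower each time. Both HT29 libraries were above both DLD1 libraries for miR-181a-3p, miR-181d-5p and miR-181a-5p in 2D, as for 39.2% of the tested miRNAs, and for the first 2 of these in MCS, as for 33.2%. Both were below for no member in 2D (31.2% of the tested miRNAs) and for miR-181b-5p and miR-181a-2-3p in MCS (42%).

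The other tested members were not called between the lines with these settings. For miR-181a-5p the log2 fold change of HT29 over DLD1 was 0.89 in 2D (SE 0.42, adjusted p = 0.130) and -0.06 in MCS (SE 0.42, adjusted p = 0.928). The 2D value rested on the HT29 2D libraries, since it was 1.34 and called without replicate 1 (edgeR adjusted p = 0.0234) and 0.20 without replicate 2. DESeq2 called it as well (1.08, adjusted p = 0.0433). For miR-181b-5p the log2 fold change was -0.20 in 2D and -0.50 in MCS, and with the upper quartile over tested miRNAs it was called lower in 2D (-0.83, edgeR adjusted p = 0.0354). For miR-181a-2-3p it was -0.04 in 2D and -0.77 in MCS, and without replicate 1 of HT29 MCS it was called lower in MCS (-1.30, edgeR adjusted p = 0.0253).

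Without the minimum of 10 CPM, both chromosome 19 strands of miR-181c were called higher in HT29 MCS than in DLD1 MCS, miR-181c-5p by 2.10 (SE 0.59, adjusted p = 0.00919) and miR-181c-3p by 2.65 (SE 0.64, adjusted p = 0.00307), over 1348 miRNAs, of which 25.8% were called. All 3 chromosome 19 members were then called higher in HT29 MCS and none of the 3 in 2D, where 26% of the 1348 were called, while miR-181a-3p lost its call in MCS (edgeR adjusted p = 0.0536). With library totals alone no member was called between the lines, and the kit version differed with the line.

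The 3p strands were used to tell the chromosome 1 and chromosome 9 copies of miR-181a apart. A ratio of 2 rows of the same library does not depend on how libraries are scaled. miR-181a-2-3p, from chromosome 9, made up 14.7% (95% Wilson interval 13.4 to 16.0) and 13.0% (12.1 to 14.0) of the 3p counts of miR-181a in DLD1 2D. Its share was 21.1% (20.0 to 22.2) and 20.4% (19.4 to 21.6) in DLD1 MCS. In HT29 it was 3.21% (2.54 to 4.04) and 2.85% (2.63 to 3.09) in 2D, and 7.28% (6.42 to 8.23) and 5.37% (4.89 to 5.90) in MCS. These intervals cover counting error only, since the reads are not counted molecules.

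The chromosome 9 strand thus held a larger share in MCS than in 2D in both lines, with no overlap between cultures. The mean share was 13.9% ± 1.16 (SD, n = 2) and 20.8% ± 0.46 (SD, n = 2) in DLD1 2D and MCS, and 3.03% ± 0.25 (SD, n = 2) and 6.32% ± 1.35 (SD, n = 2) in HT29. The log2 ratio of the chromosome 1 to the chromosome 9 strand differed between MCS and 2D by -0.71 in DLD1 and by -1.10 in HT29. With 2 libraries against 2, a two-sided exact permutation test cannot go below p = 0.3333, which both lines gave. With culture labels permuted within each line, the exact permutation p was 0.0556, the smallest that the 36 regroupings allow, and 0.1112 after adjustment over the 6 ratios computed. This design could therefore not pass 0.05. All 4 HT29 libraries had a lower chromosome 9 share than all 4 DLD1 libraries, and the kit cannot be told apart from the line there.

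The 5p strand of miR-181a was also set against its own 3p strands. Its counts were 10.6 and 8.27 times the summed counts of miR-181a-3p and miR-181a-2-3p in DLD1 2D, 17.7 and 16.6 times in DLD1 MCS, 2.72 and 4.85 times in HT29 2D, and 5.69 and 13.2 times in HT29 MCS. In both lines the MCS libraries were above the 2D libraries, by 0.87 (DLD1) and 1.25 (HT29) on the log2 scale. The exact permutation p over both lines was again the smallest possible, 0.0556, and 0.1112 when adjusted. Counting all 5p against all 3p rows of the a and b hairpins gave 0.61 and 1.19.

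The ratio of miR-181a-5p to miR-181b-5p, which come from the same pairs of hairpins, was 1.39 and 1.17 in DLD1 2D and 2.48 and 2.40 in DLD1 MCS. In HT29 it was 2.00 and 3.30 in 2D and 2.84 and 3.70 in MCS, where the cultures overlapped. MCS differed from 2D by 0.93 (DLD1) and 0.34 (HT29) in the log2 ratio (exact permutation p = 0.1111 over both lines, adjusted p = 0.1333), and in HT29 it was -0.03 without replicate 1 of 2D.

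**Figure D4:**
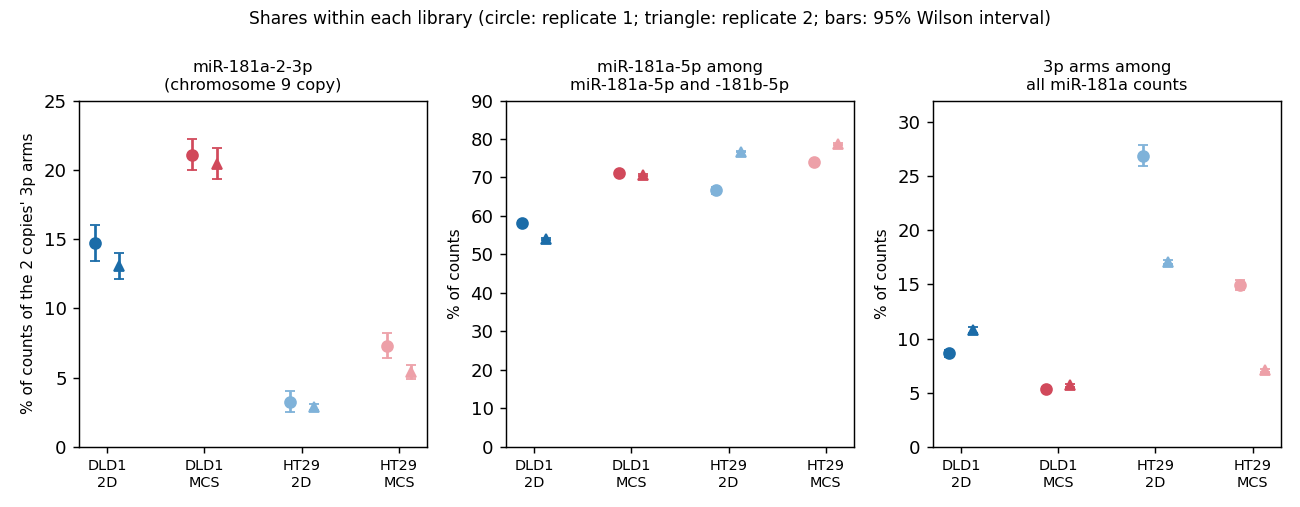
Percentages within each library, with 95% Wilson intervals of counting error, circles for replicate 1 and triangles for replicate 2. The left panel shows miR-181a-2-3p among the 3p strands of miR-181a, 13.0% to 14.7% in DLD1 2D and 20.4% to 21.1% in DLD1 MCS. The middle panel shows miR-181a-5p among miR-181a-5p and miR-181b-5p, 54.0% to 58.2% and 70.6% to 71.3% in the same groups. The right panel shows the 3p strands among all miR-181a counts, 8.64% to 10.8% and 5.35% to 5.69%.

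On the b hairpins the chromosome 9 strand, miR-181b-2-3p, had only 18 to 60 counts in a library, which left its share of the 3p strands of miR-181b at 1.96% to 7.53%. The ratio of miR-181b-3p to miR-181b-2-3p, computed after the counts had been seen, differed between MCS and 2D by -0.50 (DLD1) and -0.97 (HT29) as a log2 value, with the cultures overlapping in both lines (exact permutation p = 0.2222). miR-181b-3p itself had log2 fold changes of 0.58 (SE 0.28, edgeR adjusted p = 0.0899) in DLD1 and -0.56 (SE 0.57, edgeR adjusted p = 0.977) in HT29. miR-181d-3p had between 0 and 9 counts in each library.

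On chromosome 19 the counts of miR-181c-5p relative to miR-181d-5p were higher in MCS by 0.41 (DLD1) and 1.51 (HT29) as log2 ratios, with no overlap in either line (exact permutation p = 0.0556, adjusted p = 0.1112). Relative to its partner strand miR-181c-3p, miR-181c-5p had log2 ratios higher by 0.93 and 1.45 on average (exact permutation p = 0.1111, adjusted p = 0.1333), with overlap in DLD1. The DLD1 value was 0.34 without replicate 1 of 2D and 1.52 without replicate 2 of 2D. The summed a and b strands (5p) were 196 and 164 times the summed c and d strands in DLD1 2D and 383 and 334 times in DLD1 MCS. In HT29 they were 122 and 158 times in 2D and 56.3 and 121 times in MCS. This ratio was higher in MCS in DLD1, by 1.00 on the log2 scale, and lower in HT29, by -0.75.

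Further along chromosome 19, MIR23A and MIR27A lie 38039 and 38181 bases from MIR181C on the opposite strand, in an exon of MIR23AHG. Of the 6 strands listed for this neighbouring cluster, which also holds the miR-24-2 hairpin, 5 were tested, and in DLD1 1 was called higher and 1 lower in MCS. This is near the share over all tested miRNAs of DLD1, of which 41.3% were called, 29.8% higher and 11.6% lower. miR-27a-3p rose by a log2 fold change of 0.92 (SE 0.23, edgeR adjusted p = 0.000414) and its partner miR-27a-5p fell by 0.67 (SE 0.25, edgeR adjusted p = 0.0176). In HT29 none was called (edgeR adjusted p = 0.977 for each), and the log2 fold changes ran from 0.12 for miR-27a-5p to 0.98 for miR-24-2-5p.

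The miRNAs with profiles most like miR-181a-5p were sought by the root mean square difference of centred log2 normalized CPM over the 8 libraries, among 249 miRNAs. The nearest were miR-203b-5p (0.35), miR-29c-3p (0.37), miR-1260a (0.48), miR-361-5p (0.48) and miR-27b-3p (0.49), against a median of 1.10 over all. For miR-181c-5p, among 250 miRNAs with a median of 1.34, miR-181d-5p from the same chromosome 19 pair was nearest (0.59), followed by miR-378c (0.64), miR-142-5p (0.69), miR-29c-3p (0.72) and miR-27a-3p (0.74). No member was among the 5 nearest to miR-181a-5p. All these profiles share the same 8 libraries and their depths.

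miR-181 is abundant in lymphocytes, and miRNAs used as markers of blood cells were summed beside it. The cultures were of established colorectal adenocarcinoma lines, so such a sum is not a measure of blood cells. The 6 haematopoietic markers measured, chiefly miR-146a-5p, miR-142-3p and miR-142-5p, summed to 161 and 169 CPM in DLD1 2D and 404 and 386 CPM in DLD1 MCS, and to 52.4 and 154.6 CPM in HT29 2D and 187 and 490 CPM in HT29 MCS. The sum was thus higher in MCS in both lines, with no overlap between cultures. Of single tested miRNAs, 46% in DLD1 and 17.3% in HT29 had both MCS libraries above both 2D libraries in normalized CPM. The epithelial list was also higher in DLD1 MCS (181620 and 178690 CPM) than in DLD1 2D (99702 and 114210 CPM). In HT29 its cultures overlapped. miR-150-5p, a lymphocyte marker, was at 0 in all 4 DLD1 libraries, but at 6.29 and 11.3 CPM in HT29 2D and at 38.3 and 63.7 CPM in HT29 MCS. miR-451a, an erythroid marker, was at 0 in replicate 1 of both HT29 cultures and had 2 to 14 counts in each of the other 6 libraries. The relation of these markers to the miR-181 values was not tested.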

How the data were processed

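Small RNA of DLD1 and HT29 cells in 2D and MCS culture was sequenced in 8 libraries, which were grouped by the submitters' labels. Per the study's methods, the authors trimmed adapters with cutadapt, aligned reads with Bowtie2 to GRCh37 and to mature miRNAs, and deposited raw counts per mature miRNA, without normalization or pooling. The submitters' processing notes name cutadapt 1.11, Bowtie2 2.1.0, CASAVA 1.8.3 and edgeR 3.4.2, whereas the methods name other versions of cutadapt and Bowtie2. How multi-mapping reads were counted is not given in the sources used here. Of 12512 values held both singly and in the combined table, 0 differed. A further 15 entries naming no miRNA (0.00988% of HT29 2D replicate 2, 0 elsewhere) were left out.

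Counts were tested in R 4.3.3 with edgeR 4.0.16, which uses limma 3.58.1 (quasi-likelihood, upper quartile factors over miRNAs with a count, mean of at least 10 CPM). MCS was compared with 2D within each line. Contrasts between lines and the interaction used all 8 libraries. Standard errors are the log2 fold change divided by the square root of its F statistic. Ratios were tested by exact permutation, with all regroupings enumerated, and Wilson intervals were computed with scipy 1.17.1. The tests were tried on simulated counts. Library totals were 10495634 to 26211524, and the spread between the 2 replicates, rather than counting error, set the precision of the abundant members. The replicates of a group differed by more than counting noise (chi-square per degree of freedom 206 to 9296), which does not by itself show that they are independent. Each counted as a separate sample because the labels describe them as biological replicates.

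Alternatives were TMM and RLE factors, library totals, an upper quartile over tested miRNAs, DESeq2 1.42.0, edgeR's exact test, other minimum levels, the replicate number as a block, unadjusted p-values, leaving out each library, and a single fit of all libraries. The rule for named miRNAs took the 7 members, the other rows of their hairpins, tested miRNAs with the 5p seed, the chromosome 19 neighbours, and the 5 profiles nearest to miR-181a-5p and to miR-181c-5p (pseudocount 0.5 CPM). Members, lists and tests were chosen with earlier results of these data known. The sequence table credited to RefSeq uses GRCh38.p14, and positions are GRCh37.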

Additional observations from a re-analysis of the deposited data

Results flagged for a closer look

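The ratio of the a and b strands (miR-181a-5p and miR-181b-5p) to the c and d strands (miR-181c-5p and miR-181d-5p) differed between MCS and 2D in opposite directions in the lines. Both DLD1 MCS libraries (383 and 334) were above both DLD1 2D libraries (196 and 164), and both HT29 MCS libraries (56.3 and 121) were below both HT29 2D libraries (122 and 158), the last pair by a narrow gap. The difference between MCS and 2D in HT29 was -1.75 relative to that in DLD1 on the log2 scale. Its exact permutation p was 0.0556, the smallest that 36 regroupings allow, and 0.3336 after adjustment over 6 ratios, so the difference did not pass 0.05. In HT29 it was between -1.30 and -0.20 when each library in turn was left out. miR-181a-5p, the largest term of the ratio, had exactly 100000 counts in replicate 2 of HT29 MCS, in the table of that library as in the table of all libraries. In that library 30 miRNAs had more.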

How the results depend on the processing

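Each group has 2 libraries, the HT29 replicates are far apart, and the rare miR-181c strands are also limited by depth (7 counts of miR-181c-5p in a library). In DLD1, where 4 members and 41.3% of the miRNAs were called, library totals and the upper quartile over tested miRNAs each left 2 members, and all libraries in 1 fit left 0 members and 8.67% of the miRNAs (30 of 346), a fit built on the wider HT29 spread. Leaving out each library gave 2 to 4 members and 26.7% to 35.4% of the miRNAs, both lowest without DLD1 2D replicate 2. In HT29, with 0 members and 0 miRNAs, dropping the filter gave 1 member and 0.917% of the miRNAs (15 of 1636). Of the 301 tested, unadjusted p-values gave 3.99% (12) and 1 member, DESeq2 3.65% (11) and 0 members, and edgeR's exact test 1.66% (5) and 0 members. Leaving out a library gave 0 members and 0% to 0.687% of the miRNAs.

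The replicate numbers are not described as marking a shared batch or day. Deviations from the group means correlated by 0.34 in DLD1 (346 miRNAs) and 0.79 in HT29 (301 miRNAs) between same-numbered libraries. With the replicate block, HT29 gave 15.6% of the miRNAs (47 of 301) and 2 members, miR-181d-5p (adjusted p = 0.00349, edgeR) and miR-181a-5p (adjusted p = 0.0412), DLD1 gave 139 miRNAs and 4 members, and the interaction gave 16% of the miRNAs (40 of 250) and 1 member, miR-181a-3p (adjusted p = 0.0430). Between lines the block gave 70% of the 250 miRNAs and 3 members in 2D, with miR-181a-5p added (adjusted p = 0.00634), and 70.4% and 3 members in MCS, with miR-181a-2-3p lower (-0.83, adjusted p = 0.0152).

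Between lines, 2 members were called in each culture, with 42.4% (2D) and 42.8% (MCS) of all tested miRNAs. In 2D this became 1 with TMM (36%), 0 with library totals (24.8%), 1 with 10 CPM in every library (46.5%), 1 with no filter (26%), 3 with DESeq2 (58%), and 1 to 3 without a library (16.1% to 48.6%). With the upper quartile over tested miRNAs (44%), 1 of the 2 was called lower. In MCS it became 0 with library totals (21.2%), 1 with 10 CPM in every library (44.1%), 3 with no filter (25.8%), and 1 to 2 without a library (22.9% to 50%), with 1 of 2 lower without HT29 MCS replicate 1. It was 1 in MCS without any 1 of the 4 DLD1 libraries, and 1 in 2D without any 1 of these or without HT29 2D replicate 2.

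Some values changed sign, none of them called. miR-181d-5p in DLD1 became -0.023 with library totals and -0.11 with the upper quartile over tested miRNAs, and the interaction of miR-181b-5p 0.13 and 0.22. Between lines in 2D, miR-181a-2-3p became 0.28 (TMM), 0.11 (RLE), 0.12 (DESeq2), 0.011 (replicate block) and -0.12 to 0.014 without a library (positive without HT29 2D replicate 1), and miR-181b-5p 0.15 (TMM). In MCS, miR-181a-5p became 0.33 (TMM), 0.21 (RLE), 0.21 (DESeq2) and -0.45 to 0.27 without a library (positive without HT29 MCS replicate 1). The cause was not tested.

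Without a library, the log2 difference in the ratio of miR-181a-5p to miR-181b-5p was 0.81 to 1.06 in DLD1 and -0.026 to 0.70 in HT29, and that of miR-181b-3p to miR-181b-2-3p was -1.04 to 0.037 and -1.63 to -0.32, with the sign changes without HT29 2D replicate 1 and DLD1 2D replicate 2. That of miR-181a-3p to miR-181a-2-3p was -0.80 to -0.61 and -1.33 to -0.87, and that of miR-181a-5p to its 3p strands 0.70 to 1.05 and 0.65 to 1.86. That of miR-181c-5p to miR-181c-3p was 0.34 to 1.52 and 0.90 to 2.00, and that of miR-181c-5p to miR-181d-5p 0.14 to 0.67 and 0.98 to 2.03.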
